A study of Homo sapiens with 6 samples.

Results

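The 8 genes described here encode the factors that place RNA polymerase I on ribosomal DNA, start it, stop it and silence the repeats: UBTF, RRN3, TAF1A, TAF1B, TAF1C, TAF1D, TTF1 and BAZ2A. They were taken by gene symbol from a table of 61806 genes, each symbol matched 1 row, and all 8 passed the low-count filter that left 16834 genes to test. RNA of 293T cells, a human cell line of embryonic kidney origin, was sequenced in 6 libraries. In 3 libraries the cells had been transfected by lipid with a plasmid labelled GFP-812, and in the other 3 with a plasmid labelled GFP. Both groups therefore carried transfection reagent and a GFP plasmid; GFP is a fluorescent tag. The labels leave the name GFP-812 unexplained. The series title speaks of truncated NEK1 mutants and ribosomal RNA synthesis, and the contrast asks whether the messenger RNAs of these factors differed with the plasmid. The labels do not state whether replicates were grown apart, and p-values here speak of library-to-library spread alone, possibly technical.

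RNA polymerase I makes a single product, the precursor of the large ribosomal RNAs, from the ribosomal DNA repeats in the nucleolus. UBTF, an HMG-box protein, coats the active repeats, and the selectivity factor SL1, made of TBP and the TAF1 subunits A to D, binds the promoter beside it. RRN3 (also called TIF-IA) bridges the polymerase to SL1 and is the step that growth and stress signals act on. TTF1 binds the terminator and stops the polymerase, and BAZ2A (also called TIP5) is the large subunit of the silencing complex NoRC. The ribosomal RNA precursor has no poly(A) tail and was not analysed here, so the values concern the messenger RNAs of the factors and not the output of the polymerase.

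The plasmid label was checked first. NEK1 stood at 562.7, 518.3 and 493.7 FPKM (reads scaled to exonic length and library total) in the GFP-812 libraries and at 3.82, 3.99 and 3.91 FPKM in the GFP libraries, a 135.5-fold difference (edgeR log2 fold change 7.08, SE 0.0468, adjusted p = 4.5e-70). Libraries held 14255148 to 17613814 counts in GFP-812 cells and 16061389 to 16144531 counts in GFP cells. Of the 7 markers listed for 293T cells, 6 had a mean of at least 1 FPKM, and none passed the test. The summed level of all 7 was 186.8 to 192.9 FPKM in GFP-812 and 183.9 to 195.1 FPKM in GFP libraries. Most of that sum was VIM, which averaged 119.9 FPKM in GFP-812 and 119.1 FPKM in GFP cells. The marker below 1 FPKM was PAX2, at 0.62 FPKM in GFP-812 and 0.397 FPKM in GFP cells. Its groups did not overlap (log2 fold change 0.66, edgeR adjusted p = 0.096). The labels call the cells epithelial: KRT8 and KRT18 averaged 10.46 and 15.4 FPKM in GFP-812 cells and 9.53 and 14.7 FPKM in GFP cells, whereas EPCAM and CDH1 averaged 1.03 and 0.677 FPKM in GFP-812 cells and 0.927 and 0.643 FPKM in GFP cells. Marker sums of blood, fibroblast, endothelium, muscle and liver lay between 0 and 2.26 FPKM in GFP-812 libraries and between 0.01 and 2.07 FPKM in GFP libraries, with HBB at 0 counts in each library. Of those markers DES, of muscle, had an adjusted p = 0.0461 in edgeR at 0.597 ± 0.142 FPKM in GFP-812 and 0.223 ± 0.0896 FPKM in GFP cells (SD, n = 3 each).

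The promoters of these genes are shown because 6 of the 8 share a short sequence. Among these 6, RRN3 and TAF1D fell, and TAF1A, TAF1B, TAF1C and TTF1 did not pass the test. Whether the sequence bears on the falls was not tested. RefSeq (GRCh38.p14, the same primary assembly as hg38) lists 12 start sites for the 8 genes, with 250 bases before and 50 after each. The motif CCGGAAG, the core bound by ETS-family factors, was found on either strand at RRN3, TAF1A, TAF1B, TAF1C, TAF1D and TTF1, and it was not found at UBTF or BAZ2A. It was present in 8 of the 12 windows of the 8 genes, in 10.3% of all 35116 promoter windows and in 15.7% of the 17064 windows of tested genes. The windows of RRN3 overlap each other and hold the same match, and those of TAF1B overlap and hold the same matches. These are therefore counted more than once, and no share per gene was computed. Below, capitals mark CCGGAAG or its reverse complement CTTCCGG. The TAF1D window lies inside the span counted for TAF1D, which runs on to 93784391. It also holds the start of C11orf54 (93741591) on the opposite strand. The windows are printed 5′ to 3′ on the gene's own strand, the minus strand in all 4 cases, for TAF1D (chr11:93741446-93741745), RRN3 (chr16:15094286-15094585, the start nearer to the gene end in the count table), TAF1C (chr16:84187008-84187307) and TTF1 (chr9:132406791-132407090).
TAF1D: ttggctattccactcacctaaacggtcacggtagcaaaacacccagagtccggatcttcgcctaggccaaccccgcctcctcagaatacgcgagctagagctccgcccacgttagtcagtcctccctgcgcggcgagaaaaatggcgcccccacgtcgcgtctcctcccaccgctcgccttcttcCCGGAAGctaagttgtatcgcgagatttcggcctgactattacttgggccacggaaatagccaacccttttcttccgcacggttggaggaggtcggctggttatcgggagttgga
RRN3: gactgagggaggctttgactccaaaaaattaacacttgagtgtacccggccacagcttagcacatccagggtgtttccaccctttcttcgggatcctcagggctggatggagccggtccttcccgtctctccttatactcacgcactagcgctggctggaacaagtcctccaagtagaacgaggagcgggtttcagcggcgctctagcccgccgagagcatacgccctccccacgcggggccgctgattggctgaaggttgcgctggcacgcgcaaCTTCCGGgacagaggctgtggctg
TAF1C: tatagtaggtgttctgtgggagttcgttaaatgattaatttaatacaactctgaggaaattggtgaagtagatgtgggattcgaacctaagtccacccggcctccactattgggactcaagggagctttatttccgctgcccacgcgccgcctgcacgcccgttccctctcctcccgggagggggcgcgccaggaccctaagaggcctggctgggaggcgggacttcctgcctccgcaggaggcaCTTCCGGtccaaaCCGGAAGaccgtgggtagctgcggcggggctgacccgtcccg
TTF1: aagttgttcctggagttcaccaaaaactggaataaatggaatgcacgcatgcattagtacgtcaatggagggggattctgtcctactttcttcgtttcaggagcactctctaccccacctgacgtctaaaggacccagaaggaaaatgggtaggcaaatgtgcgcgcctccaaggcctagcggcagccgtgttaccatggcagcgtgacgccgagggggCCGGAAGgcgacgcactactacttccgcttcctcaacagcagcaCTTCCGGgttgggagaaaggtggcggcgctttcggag
TAF1D and RRN3 have 1 match each, and TAF1C and TTF1, whose messenger RNAs did not pass the test, have 2 each. TAF1A and TAF1B, not printed, did not pass either, with 1 match in the TAF1A window and 2 in each TAF1B window. Of the other motifs searched on both strands, GGGCGG (GC box) was in 5 of the 12 windows, against 45% of all windows and 64.9% of those of tested genes. CCAAT was in 6 of the 12, against 34.6% and 34.5%. Those 6 windows belong to 4 genes, with RRN3 and TAF1B again counted more than once. CACGTG (E-box) and TATAAA were in 0 of the 12, against 7.26% and 9.08% for CACGTG and 11.5% and 6.63% for TATAAA. By their letters, GGGCGG can share end bases with CCGGAAG and the other motifs cannot. The GC boxes were at UBTF, BAZ2A and TAF1D, with 7 of them in the UBTF window chr17:44220833-44221132 (69.3% G or C). A match is a stretch of letters and not a measured binding site.

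TAF1D and RRN3 fell in GFP-812 cells, by 11.7% and 11.6%, and the other 6 genes did not pass the test. With 1 library left out, TAF1D passed in 4 of 6 edgeR fits and RRN3 in 2 of 6. With limma on log2(FPKM + 1) or log2(FPKM + 0.1), 0 of the 8 fell, as did 1 of 12984 genes. All 8 fitted log2 fold changes lay below 0, with a median of -0.09 against a median of 0.007 over all genes tested, of which 48.2% lay below 0. Of all 16834 genes, edgeR's quasi-likelihood test called 2.67% fallen and 1.18% risen at a Benjamini-Hochberg adjusted p under 0.05, or 3.84% in all, against 2 of 8 fallen and 0 of 8 risen here; DESeq2 also called 2 fallen and 0 risen. In 4 nearly equal bins of abundance in log2 CPM, lowest first, 0.38%, 0.618%, 2.45% and 7.22% of genes fell. An unadjusted p under 0.05 with a fall was reached by 4 of the 8 and by 8.9% of all genes, and with a rise by none of the 8; in either direction, 16.1% of all genes reached it. For 4 of the 8 (UBTF, RRN3, TAF1D and BAZ2A) the 3 GFP-812 libraries all lay below the 3 GFP libraries in FPKM, as they did for 12.1% of all genes tested. For none of the 8 did the GFP-812 libraries all lie above, as they did for 7.93% of all genes. UBTF, RRN3, TAF1D and BAZ2A are also the most abundant of the 8 in counts, and among the 1832 genes at least as abundant as RRN3, 8.08% fell. In bulk RNA, fewer cells expressing a gene and less RNA per cell cannot be told apart.

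**Figure D1:**
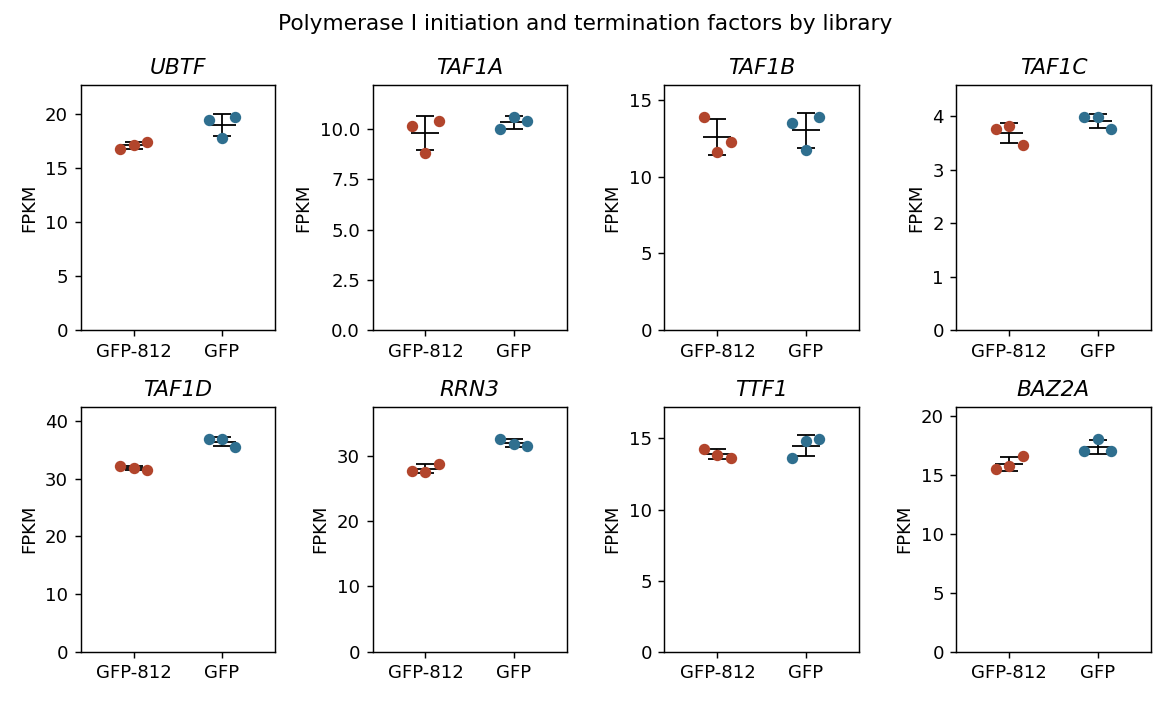
FPKM of the 8 genes (vertical axes, each starting at 0) in GFP-812 libraries (left, red) and GFP libraries (right, blue); points are libraries, horizontal marks and bars the mean and SD of 3. The groups are separate for UBTF, TAF1D, RRN3 and BAZ2A and overlap for TAF1A, TAF1B, TAF1C and TTF1.

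UBTF (ENSG00000108312, hg38 chromosome 17, 44205033 to 44221626, minus strand) binds along the active ribosomal DNA and keeps it open. It stood at 16.7, 17.1 and 17.4 FPKM in GFP-812 libraries and at 19.4, 17.8 and 19.7 FPKM in GFP libraries. The groups did not overlap, and GFP replicate 2 lay close to the GFP-812 libraries. The mean was 17.1 ± 0.335 FPKM in GFP-812 cells and 19.0 ± 1.04 FPKM in GFP cells (SD, n = 3 each), and the fitted log2 value of -0.14 (SE 0.0483, edgeR adjusted p = 0.0974) missed the threshold over all genes. The 95% interval of the change ran from -15.07% to -2.88%. Without GFP replicate 2 the log2 fold change was -0.19 and the edgeR adjusted p 0.0209. Leaving out any other library gave an edgeR adjusted p of 0.175 to 0.342. None of the 11 alternatives that kept all libraries passed, with adjusted p from 0.0555 (edgeR, total-count scaling) to 0.311 (limma on log2(FPKM + 0.1)). Counts ran from 1667 to 2142 in GFP-812 and from 1999 to 2211 in GFP libraries. The related gene UBTFL1 had 0 counts in each library, and the antisense gene ATXN7L3-AS1, which overlaps UBTF, had at most 2. Another antisense gene without a symbol in the table (ENSG00000260793) overlaps it by 258 bases and had 9 to 26 counts in GFP-812 and 9 to 15 in GFP libraries. Counts per gene do not separate the long and short UBTF proteins, which differ by an alternative exon; GENCODE release 29 lists 10 protein-coding UBTF transcripts.

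Of the 4 TAF1 subunits of SL1, TAF1D passed the test, and no test compared it with the other 3. TAF1D (ENSG00000166012, chromosome 11, 93729948 to 93784391, minus strand), the small subunit also known as JOSD3, stood at 32.2, 31.9 and 31.6 FPKM in GFP-812 libraries and at 37.0, 36.8 and 35.5 FPKM in GFP libraries. Each GFP-812 library lay more than 3 FPKM below the lowest GFP library. The mean was 31.9 ± 0.336 FPKM in GFP-812 cells and 36.4 ± 0.799 FPKM in GFP cells (SD, n = 3 each), with -0.18 as the log2 fold change (SE 0.0398, edgeR adjusted p = 0.00321; 95% interval of the change -16.4% to -6.67%). This rested on 3661 to 4429 counts in GFP-812 and 4546 to 4755 counts in GFP libraries, the most of the 8 genes. Its adjusted p was 0.0527 without GFP-812 replicate 2 and 0.0597 without GFP-812 replicate 3, with log2 fold changes of -0.18 and -0.17, and limma on log2(FPKM + 1) gave -0.19 with an adjusted p of 0.212.

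TAF1D is also a host gene: its span holds 8 genes of small nucleolar RNAs on the same strand, which guide modification of ribosomal and other RNAs. SNORD6 had 19, 10 and 11 counts in GFP-812 libraries and 10, 10 and 13 in GFP libraries (edgeR adjusted p = 0.787), and the other 7, SNORA1, SNORA8, SNORA18, SNORA25, SNORA32, SNORA40 and SNORD5, had 0 counts in each library. The libraries hold poly(A) RNA, so counts of 0 do not show that these small RNAs were absent from the cells. The exonic size used for TAF1D is 7970 bases, while its longest protein-coding transcript in GENCODE release 29 has 2082 bases and 9 of its 22 transcripts there are retained introns, so its FPKM depends on that choice of size. Its 3′ end overlaps that of CEP295, a centriole gene on the opposite strand, by 411 bases. CEP295 stood at 7.87, 7.70 and 8.14 FPKM in GFP-812 and 10.6, 10.2 and 9.06 FPKM in GFP libraries, and its log2 fold change was -0.32 (SE 0.0559, edgeR adjusted p = 0.000148; limma on log2(FPKM + 1) gave 0.212). It had 1060 to 1355 counts in GFP-812 and 1376 to 1619 counts in GFP libraries, fewer than TAF1D. Also on the opposite strand, C11orf54 lies within the TAF1D span, with a log2 fold change of 0.05 (edgeR adjusted p = 0.855), and MED17 overlaps its far end by 165 bases, with -0.31 (edgeR adjusted p = 0.27). The sources used here do not give the strand setting of the counting, and the part of shared reads in the TAF1D value was not tested.

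TAF1A, TAF1B and TAF1C did not pass the test. TAF1A (ENSG00000143498, chromosome 1, 222557902 to 222589933, minus strand) stood at 10.2, 8.82 and 10.4 FPKM in GFP-812 libraries and at 10.0, 10.6 and 10.4 FPKM in GFP libraries, where GFP-812 replicate 2 was the lowest and the rest overlapped. Its log2 fold change was -0.06 (SE 0.0812, edgeR adjusted p = 0.76), and 0.01 without GFP-812 replicate 2. TAF1B (ENSG00000115750, chromosome 2, 9843443 to 9934416, plus strand), the subunit that resembles TFIIB, stood at 13.9, 11.6 and 12.3 FPKM in GFP-812 and at 13.5, 11.7 and 13.9 FPKM in GFP libraries. Its groups overlapped over nearly their whole range, the log2 fold change was -0.04 (SE 0.0687, edgeR adjusted p = 0.834), and on leaving out GFP-812 replicate 2 or GFP replicate 3 it was 0.015 or 0.0068. TAF1C (ENSG00000103168, chromosome 16, 84177847 to 84187070, minus strand), which binds RRN3 within SL1, stood at 3.77, 3.82 and 3.47 FPKM in GFP-812 and at 3.99, 3.99 and 3.77 FPKM in GFP libraries, and the groups overlapped slightly. Its log2 fold change was -0.08 (SE 0.0917, edgeR adjusted p = 0.745). The 95% intervals of the change were -14.5% to 7.12% for TAF1A, -11.6% to 6.95% for TAF1B and -16.5% to 7.79% for TAF1C, so a fall of about the size seen for TAF1D lies inside or at the edge of each. TAF1C had 300 to 341 counts in GFP-812 and 338 to 359 in GFP libraries, the fewest of the 8. TBP, the subunit that SL1 shares with the other polymerases' factors, had a log2 fold change of -0.15 (edgeR adjusted p = 0.288).

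RRN3 (ENSG00000085721, chromosome 16, 15060033 to 15094311, minus strand) stood at 27.6, 27.5 and 28.7 FPKM in GFP-812 libraries and at 32.6, 31.8 and 31.4 FPKM in GFP libraries. The groups were separate, with the highest GFP-812 library (replicate 3) below the lowest GFP library (replicate 3). Its mean was 27.97 ± 0.666 FPKM in GFP-812 cells and 31.9 ± 0.608 FPKM in GFP cells (SD, n = 3 each), with -0.18 as the log2 fold change (SE 0.0470, edgeR adjusted p = 0.018; 95% interval of the change -17.1% to -5.58%), on 1631 to 2095 counts in GFP-812 and 2087 to 2177 counts in GFP libraries. The adjusted p was 0.072, 0.162 and 0.0611 without GFP-812 replicates 1, 2 and 3, 0.133 without GFP replicate 1, and 0.212 with limma on log2(FPKM + 1), while the log2 fold change stayed between -0.19 and -0.16 with any 1 library left out.

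RRN3 shares sequence with pseudogenes on the same chromosome. Of the 3663 windows of 100 bases in its longest protein-coding transcript of GENCODE release 29 (3762 bases), 19.3% occur without mismatch in a transcript of RRN3P1, RRN3P2 or RRN3P3, and of its windows of 150 bases 9.58% do. A read lying wholly within such a stretch matches more than 1 gene. How many reads do so, and the effect on the level of RRN3, was not measured. RRN3P1 stood at 1.98, 1.89 and 2.26 FPKM in GFP-812 libraries and at 2.56, 2.08 and 2.21 FPKM in GFP libraries (log2 fold change -0.14, edgeR adjusted p = 0.572). RRN3P3 averaged 0.567 FPKM in GFP-812 cells and 0.737 FPKM in GFP cells (edgeR adjusted p = 0.564), and RRN3P2 had at most 1 count per library. RRN3 also lies wholly within the span of PDXDC1 on the opposite strand, whose 2260 to 2750 counts per library gave a log2 fold change of -0.04 (edgeR adjusted p = 0.7).

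TTF1 and BAZ2A, the termination factor and the silencing factor it recruits, did not pass the test. TTF1 (ENSG00000125482, chromosome 9, 132375548 to 132406851, minus strand; this is the polymerase I terminator protein and not the thyroid factor NKX2-1, which has the same alias) stood at 14.3, 13.8 and 13.6 FPKM in GFP-812 libraries and at 13.6, 14.9 and 14.99 FPKM in GFP libraries. GFP replicate 1 lay among the GFP-812 libraries, and the log2 fold change was -0.05 (SE 0.0660, edgeR adjusted p = 0.786; 95% interval of the change -11.7% to 6.07%). BAZ2A (ENSG00000076108, chromosome 12, 56595596 to 56636816, minus strand) stood at 15.5, 15.8 and 16.6 FPKM in GFP-812 libraries and at 17.0, 18.1 and 17.1 FPKM in GFP libraries. The groups did not overlap, but the gap between them was smaller than the SD of either (0.584 FPKM in GFP-812 and 0.607 FPKM in GFP cells). Its log2 fold change was -0.11 (SE 0.0436, edgeR adjusted p = 0.163; unadjusted p = 0.015; 95% interval of the change -12.8% to -1.52%). BAZ2A and RBMS2 on the opposite strand overlap by 598 bases, and RBMS2 had a log2 fold change of -0.05 (edgeR adjusted p = 0.787).

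**Figure D2:**
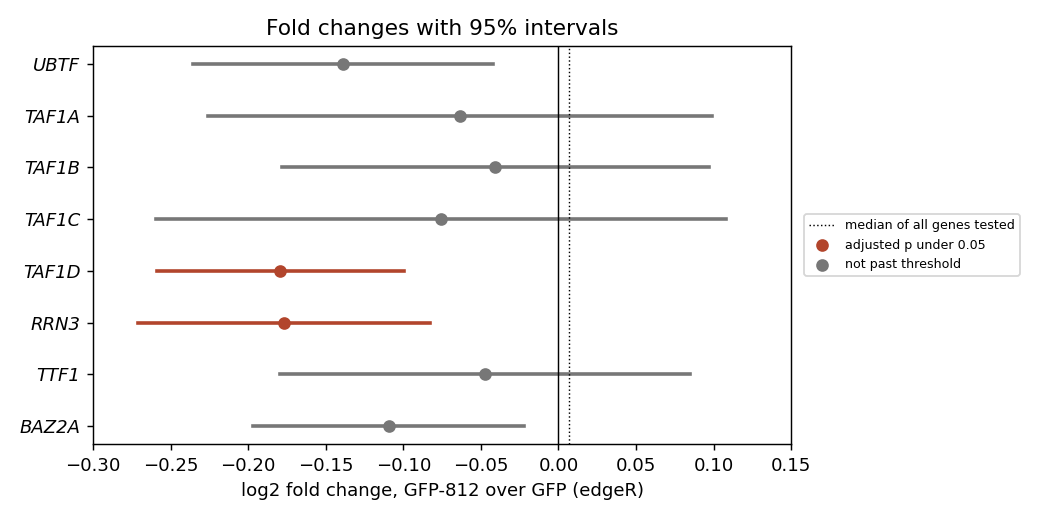
edgeR log2 fold change of each gene, GFP-812 over GFP (horizontal axis), with its 95% interval; red genes have an adjusted p under 0.05 and the dotted line is the median of all genes tested (0.007). TAF1D and RRN3 are at -0.18, and the intervals of TAF1A, TAF1B, TAF1C and TTF1 include 0.

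Per length of exon, the order of the messenger RNA levels was TAF1D, RRN3, UBTF, BAZ2A, TTF1, TAF1B, TAF1A and TAF1C. Over all 6 libraries the means were 34.2 FPKM for TAF1D, 29.9 for RRN3, 18.0 for UBTF, 16.7 for BAZ2A, 14.2 for TTF1, 12.8 for TAF1B, 10.07 for TAF1A and 3.80 for TAF1C. The ranges of TAF1D and RRN3, of UBTF and BAZ2A, and of TTF1 and TAF1B overlapped; TAF1D exceeded RRN3 and TTF1 exceeded TAF1B in 6 of 6 libraries, and UBTF exceeded BAZ2A in 5 of 6. RRN3 and UBTF, BAZ2A and TTF1, TAF1B and TAF1A, and TAF1A and TAF1C did not overlap. TAF1C was the lowest in each library, at the 52.3 percentile of all genes tested, while TAF1D stood at the 93.1 percentile. Among the TAF1 subunits TAF1D took 53.6%, 56.8% and 54.7% of the summed FPKM in GFP-812 libraries and 57.3%, 58.3% and 55.8% in GFP libraries, groups that overlap. The summed FPKM of all 8 genes was 134.3, 130.4 and 134.1 in GFP-812 libraries and 147.1, 145.7 and 146.7 in GFP libraries.

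**Figure D3:**
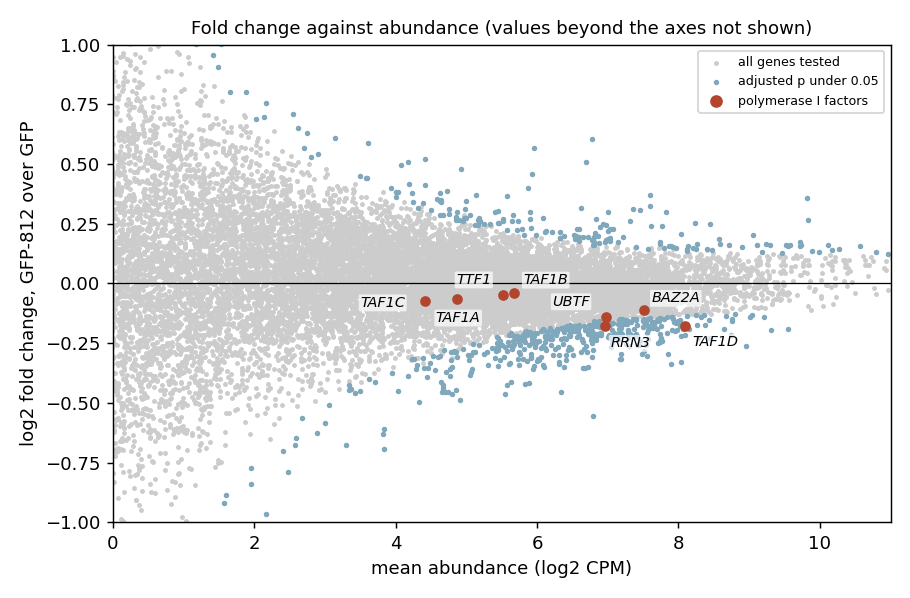
edgeR log2 fold change, GFP-812 over GFP (vertical axis), against mean abundance in log2 CPM (horizontal axis) for genes tested (grey), genes with an adjusted p under 0.05 (blue) and the 8 polymerase I factors (red, labelled). Of the 16834 genes tested, those beyond the axes, NEK1 among them, are not shown. The fold change a gene needs to pass becomes smaller with abundance, and the 4 most abundant factors are UBTF, RRN3, BAZ2A and TAF1D.

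Fold changes in these libraries moved with gene size. Of the genes tested, the fifth with the shortest exonic size (60 to 2424 bases) had a median log2 fold change of 0.053 with 0.356% fallen, and the fifth with the longest (8600 to 205012 bases) had a median of -0.017 with 5.41% fallen. The 8 factors have exonic sizes of 2891 (TAF1A) to 10936 bases (BAZ2A), with RRN3 at 4139 and TAF1D at 7970. In the fifth that holds RRN3 (3988 to 5815 bases) the median was 0.0013 with 2.17% fallen. In the fifth that holds TAF1D (5816 to 8599 bases) it was -0.012 with 4.01% fallen. The share of genes fallen also rose with abundance, and size and abundance were not separated here. After a correction of each library for GC content and exonic size, chosen after the data were examined, TAF1D was at -0.14 (edgeR adjusted p = 0.015) and RRN3 at -0.15 (edgeR adjusted p = 0.0273), and both were still past the threshold.

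**Figure D4:**
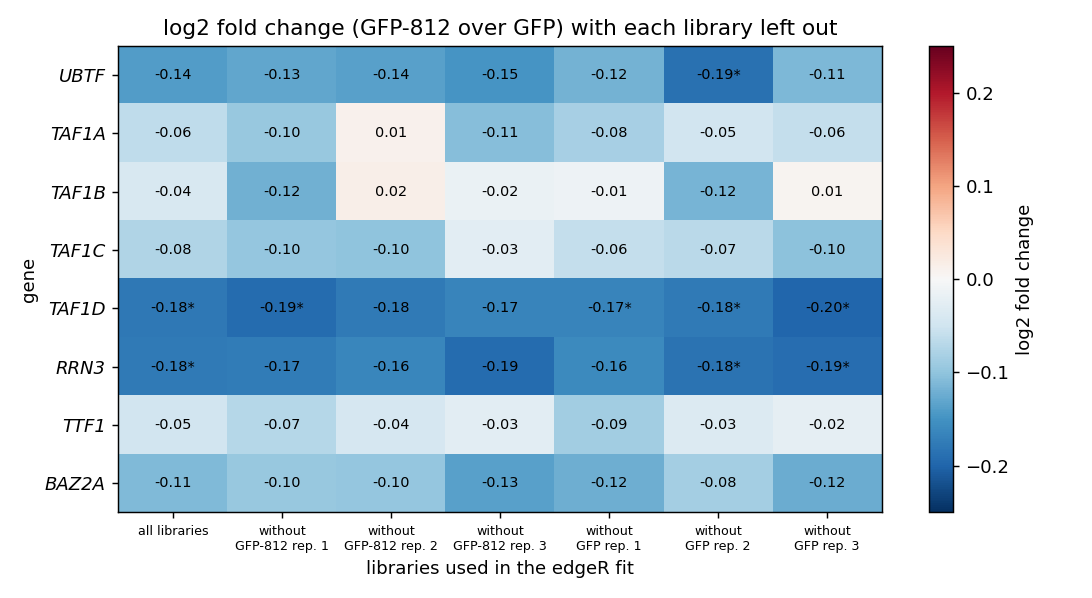
edgeR log2 fold change, GFP-812 over GFP (colour and printed value), of the 8 genes (rows) with all libraries and with each library left out in turn (columns); asterisks mark an adjusted p under 0.05. TAF1D has an asterisk in 4 of the 6 fits with a library left out, RRN3 in 2 and UBTF in 1, and TAF1A and TAF1B change sign.

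None of the 13 subunits of RNA polymerase I passed the test in either direction, where 3.84% of all genes did. The median log2 fold change of the subunits was 0.018, 3 of 13 lay below 0, 0 of 13 had an unadjusted p under 0.05 in edgeR (16.1% of all genes), and DESeq2 also called 0 of 13. In 1 of 13 the GFP-812 libraries all lay below the GFP libraries in FPKM, as they did for 12.1% of all genes tested. In 0 of 13 they all lay above, as they did for 7.93% of all genes. POLR1A, the largest subunit, stood at 5.91, 6.12 and 6.09 FPKM in GFP-812 and at 6.45, 6.56 and 6.17 FPKM in GFP libraries (log2 fold change -0.07, SE 0.0473, edgeR adjusted p = 0.491), and POLR2E, a subunit shared by all 3 polymerases, had a log2 fold change of 0.07 (edgeR adjusted p = 0.574). Whether the factors and the subunits differ from each other was not tested.

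Of 18 genes of ribosomal DNA chromatin and silencing 2 fell, 0 rose and 16 did not pass, with a median of -0.06. Over all genes 2.67% fell and 1.18% rose, and among those at least as abundant as RRN3, which include DNMT1, 8.08% fell. An unadjusted p under 0.05 in edgeR was reached by 6 of 18, against 16.1% of all genes. DNMT1, the maintenance DNA methyltransferase, stood at 15.9, 15.9 and 15.7 FPKM in GFP-812 and at 17.9, 18.6 and 16.7 FPKM in GFP libraries (log2 fold change -0.15, SE 0.0414, edgeR adjusted p = 0.023). SIRT1, the deacetylase of the silencing complex eNoSC, stood at 15.1, 15.3 and 17.1 FPKM in GFP-812 and at 19.6, 18.1 and 17.0 FPKM in GFP libraries, with an overlap between GFP-812 replicate 3 and GFP replicate 3 (log2 fold change -0.19, SE 0.0582, edgeR adjusted p = 0.0483). SMARCA5, the ATPase that pairs with BAZ2A in NoRC, had a log2 fold change of -0.06 (edgeR adjusted p = 0.447). With a library left out, DNMT1 passed when that was GFP replicate 3 (adjusted p = 0.000255). Leaving out any other gave 0.0575 to 0.155 (GFP-812 replicates 1 to 3) or 0.116 to 0.12 (GFP replicates 1 and 2). SIRT1 missed the threshold on leaving out GFP-812 replicate 1 (0.185) or 2 (0.29) and GFP replicate 1 (0.372) or 2 (0.0794), after the GC and size correction (0.0786), in DESeq2 (0.0719) and limma-voom (0.0568), and among genes with a mean FPKM of at least 1 (0.0519). With limma on log2(FPKM + 1) or log2(FPKM + 0.1) the adjusted p was 0.253 or 0.272 for DNMT1 and 0.302 or 0.325 for SIRT1.

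Of 20 kinases that act on the polymerase I factors or upstream of them 2 fell, 0 rose and 18 did not pass, with a median of -0.05. Over all genes 2.67% fell and 1.18% rose, and among those at least as abundant as RRN3, which include MTOR and RPS6KB1, 8.08% fell. An unadjusted p under 0.05 in edgeR was reached by 6 of 20, against 16.1% of all genes. MTOR, the growth kinase to which RRN3 activity responds, stood at 10.3, 9.44 and 10.2 FPKM in GFP-812 and at 11.5, 11.8 and 10.5 FPKM in GFP libraries (log2 fold change -0.16, SE 0.0481, edgeR adjusted p = 0.0469). RPS6KB1, the S6 kinase downstream of it, stood at 16.4, 16.1 and 16.5 FPKM in GFP-812 and at 18.9, 19.2 and 17.3 FPKM in GFP libraries (log2 fold change -0.17, SE 0.0473, edgeR adjusted p = 0.0306). GFP replicate 3 was the lowest GFP library for both. RPS6KB1 passed without GFP replicate 3 (adjusted p = 0.000971) and in no other such fit, with 0.0688 to 0.206 when a GFP-812 library and 0.122 to 0.185 when GFP replicate 1 or 2 was left out. MTOR missed the threshold on leaving out GFP-812 replicate 2 (0.383) or 3 (0.122) and GFP replicate 1 (0.239) or 2 (0.18), in DESeq2 (0.0608) and among genes with a mean FPKM of at least 1 (0.0506). With limma on log2(FPKM + 1) or log2(FPKM + 0.1) it was 0.307 or 0.325 for MTOR and 0.243 or 0.269 for RPS6KB1. After the GC and size correction neither passed (0.0889 for RPS6KB1, 0.0528 for MTOR).

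Of 23 cofactors and regulators of polymerase I 0 fell, 1 rose and 22 did not pass, with a median of -0.04. Over all genes 2.67% fell and 1.18% rose. An unadjusted p under 0.05 in edgeR was reached by 8 of 23 (16.1% of all genes), and DESeq2 called 0 in either direction. The risen gene was CAVIN1, whose product (also called PTRF) was described as releasing polymerase I transcripts and is better known as a coat protein of caveolae. CAVIN1 stood at 10.5, 9.27 and 8.91 FPKM in GFP-812 and at 8.19, 7.73 and 7.92 FPKM in GFP libraries (log2 fold change 0.27, SE 0.0792, edgeR adjusted p = 0.034). For CAVIN1 this call was lost on leaving out GFP-812 replicate 1 (adjusted p = 0.255) or 2 (0.1) and GFP replicate 1 (0.0689) or 2 (0.119), in DESeq2 (0.0511), and with limma on log2(FPKM + 1) (0.223) or log2(FPKM + 0.1) (0.249). TOP1, the topoisomerase that relieves supercoiling on ribosomal DNA, was next by p, at a log2 fold change of -0.12 (edgeR adjusted p = 0.0811), and passed without GFP replicate 3 (0.00892). MYC, NCL and NPM1 had log2 fold changes of 0.09, 0.05 and 0.08 (edgeR adjusted p = 0.271, 0.468 and 0.175).

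The genes whose log2 CPM over the 6 libraries was most like that of TAF1D were G2E3 (Pearson r 0.999), NPLOC4 (0.997) and LSM14A (0.995), out of 6874 genes with a mean of at least 5 FPKM. For RRN3 they were NUP98 (0.999), POLR3C (0.997) and CNOT10 (0.995). Among the same genes 436 reached r of at least 0.9 with TAF1D and 318 with RRN3. The log2 fold changes of the 6 named genes were -0.32 for G2E3, -0.16 for NPLOC4, -0.09 for LSM14A, -0.19 for NUP98, -0.36 for POLR3C, a subunit of RNA polymerase III, and -0.23 for CNOT10. NPLOC4 and LSM14A did not pass the test (edgeR adjusted p = 0.0787 and 0.271). Since these genes were picked for following TAF1D or RRN3 over the same libraries, values below 0 follow from the choice.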

How the data were processed

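Per the labels' protocols, poly(A) RNA of 6 libraries was copied from random primers. HISAT2 2.2.1, HTSeq 0.6.1, cutadapt 1.9.1, FastQC 0.10.1 and the build hg38 are named in the submitters' processing notes, without roles. Annotation release and strand setting: not given in the sources used here. Per the file headers, the authors deposited raw counts and FPKM per gene and library. Count over exonic size and library total returned the deposited FPKM for 100% of values within 0.0051, so FPKM carry no further scaling. No row lacked a gene.

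Here edgeR 4.0.16 in R 4.3.3 (filterByExpr, TMM, quasi-likelihood test, group as the single term) tested GFP-812 over GFP on the counts, with 2-sided p-values, a Benjamini-Hochberg adjustment over 16834 genes and a threshold of 0.05. It was tested on simulated data. SEs were computed from the F statistic, and intervals from the SE and the fitted degrees of freedom. FPKM are means ± SD of 3 libraries. Lists of 13 to 23 genes are described by counts and medians. Named are the 8 genes, NEK1, genes of each list past the threshold (at least the 2 with the smallest p), the 3 genes most like TAF1D and RRN3, and copies or overlapping genes. SMARCA5, TBP, MYC, NCL and NPM1 were named for their known roles outside that rule, after values were seen. The genes and lists were chosen with earlier results of these data known. Alternatives used limma 3.58.1, limma-voom, DESeq2 1.42.0, other scalings and filters, a replicate block and each library left out.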

Additional observations from a re-analysis of the deposited data

How the results depend on the processing

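Of the 8 fold changes, those of UBTF, RRN3, TAF1C, TAF1D, TTF1 and BAZ2A kept their sign under all 17 alternatives, and TAF1A and TAF1B changed it where a library was left out. TAF1D and RRN3 both passed under 9 of the 11 alternatives that kept all libraries, and neither passed with limma on log2(FPKM + 1) (log2 fold changes -0.186 and -0.184, adjusted p = 0.212 for both) or log2(FPKM + 0.1) (-0.191 and -0.19, adjusted p = 0.225 for both), where 0 of the 8 fell. With limma, genes fallen and risen numbered 1 and 3 of 12984 with either pseudocount, against 449 and 198 in edgeR. DESeq2 called 128 genes risen. The cause was not tested.

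With each library left out, fallen genes numbered 147 to 810 and risen genes 62 to 507, the highest both without GFP replicate 3. Fallen factors numbered 0 (without GFP-812 replicates 2 or 3) to 3 (without GFP replicate 2). The log2 fold changes ran from -0.188 to -0.112 for UBTF, -0.192 to -0.159 for RRN3, -0.106 to 0.00988 for TAF1A, -0.12 to 0.0154 for TAF1B (0.00684 without GFP replicate 3) and -0.198 to -0.166 for TAF1D. Fallen chromatin genes numbered 0 to 4, fallen cofactors 0 to 4, risen cofactors 0 to 3 and fallen kinases 0 to 4.

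Fallen chromatin genes numbered 1 with DESeq2, limma-voom, a mean FPKM of at least 1 or the GC and size correction, and 0 with limma on either pseudocount. Fallen kinases numbered 1 with DESeq2 or a mean FPKM of at least 1 and 0 with limma on either pseudocount or the GC and size correction. Risen cofactors numbered 0 with DESeq2 or limma on either pseudocount and 2 with limma-voom or the GC and size correction, and 1 cofactor fell with total-count scaling. The GC and size correction gave 372 genes fallen and 288 risen. It and robust edgeR were chosen after seeing the data.

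With the replicate number as a block, 511 genes fell and 266 rose, TAF1D was at -0.179 and RRN3 at -0.177, and the call of none of the 8 factors changed. Deviations of same-numbered libraries from their group means, over all genes tested, correlated at 0.0318, -0.0102 and 0.00614. Libraries of unlike number gave -0.0318 to 0.0264. Counting noise of low-count genes enters these values, so they cannot show whether same-numbered libraries share more than a number. TAF1C and TAF1A had the fewest counts and the largest SEs of the 8.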

Other observations

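BAZ2B, the paralog of BAZ2A, is also a bromodomain protein. It stood at 1.20, 1.27 and 1.29 FPKM in GFP-812 libraries and at 1.53, 1.55 and 1.53 FPKM in GFP libraries, with no overlap between the groups. Its log2 fold change was -0.28 (SE 0.0802, edgeR adjusted p = 0.0317), against -0.11 for BAZ2A, and the difference between the paralogs was not tested. Its adjusted p was 0.125, 0.121 and 0.088 without GFP-812 replicates 1, 2 and 3, 0.103 and 0.0781 without GFP replicates 1 and 2, 0.0348 without GFP replicate 3, 0.0649 after the GC and size correction, and 0.212 or 0.203 with limma on log2(FPKM + 1) or log2(FPKM + 0.1).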
